A study of Mus musculus with 4 samples.

Results

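The interferon-related genes Ifi203, Ifi204, Ifi27, Ifitm2, Ifitm3, Bst2, B2m, H2-D1 and H2-K1, were followed through single cells of the hyaloid vessels, the transient vessels of the developing eye that run through the vitreous body. These are 9 of the 32285 mouse genes measured. They were selected on the measured genotype difference of Ifi203 in pericytes of these same cells, and the question was whether that difference extended to the other 8 genes. The Ifi203 difference in pericytes is therefore given as a description and supports nothing.

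Cells came from vitreous bodies of P6 pups, pooled into 1 cell suspension per genotype. The Gpr124 dEC/dEC suspension held 9 pups with floxed Gpr124 and VECad-Cre-ERT2, a tamoxifen-inducible Cre driven by the vascular endothelial cadherin promoter, so that deletion is directed to endothelial cells. The Gpr124 fl/fl suspension held 7 Cre-negative littermates that carried the same floxed alleles, and pups of both genotypes received tamoxifen. Gpr124, listed as Adgra2, encodes an adhesion G protein-coupled receptor. SORT-seq counts the transcripts of 1 sorted cell per well by unique molecular identifiers (UMIs). Each suspension filled 2 plates of 384 wells, plate 1 through a CD31 gate (endothelial cells) and plate 2 through a PDGFRB gate (pericytes), and the Gpr124 dEC/dEC PDGFRB-gate plate also received cells of the CD31 gate, so that the gate of its single wells is unknown.

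Of 1536 wells, 42 had 1000 to 8000 UMIs and a mitochondrial share below 10%. Among them, 11 wells with Cldn5 and no Pdgfrb UMIs were taken as endothelial cells, and 21 wells with Pdgfrb and no Cldn5 UMIs as pericytes. The pericytes were 9 Gpr124 fl/fl cells (6 from the CD31-gate plate, 3 from the PDGFRB-gate plate; 32109 UMIs in all) and 12 Gpr124 dEC/dEC cells (all from the PDGFRB-gate plate; 48351 UMIs). The endothelial cells were 5 Gpr124 fl/fl cells (15184 UMIs) and 6 Gpr124 dEC/dEC cells (15864 UMIs). Per cell, totals ran from 1104 to 7222 UMIs. Endothelial marker genes summed to 106 and 131 UMIs per 10000 in Gpr124 fl/fl and Gpr124 dEC/dEC endothelial cells, against 9.34 and 9.51 in pericytes. Pericyte marker genes summed to 184 and 213 in pericytes, against 19.1 and 17.0 in endothelial cells. Adgra2 had 3 UMIs in Gpr124 fl/fl endothelial cells and 0 in Gpr124 dEC/dEC endothelial cells, too few to check the deletion, and 7 and 17 UMIs in pericytes. Of 384 well barcodes, all occurred in the 4 plates, and 10 of the 32 cells had a barcode with at least 1000 UMIs in another plate.

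With 1 suspension per genotype, the genotypes could not be tested against each other. Levels are UMIs pooled over cells per 10000 UMIs, and brackets hold 95% intervals for counting error only (exact Poisson for a level, exact conditional binomial for a ratio, exact binomial for a share of cells). They leave out the spread between mice, suspensions and plates, and for levels and ratios also the spread between cells. In pericytes the genotype cannot be told apart from the plate for the Gpr124 dEC/dEC cells, which all came from 1 plate. A count of 0 was taken at a floor of 3 UMIs for ratios, that is 0.934 and 0.620 UMIs per 10000 in Gpr124 fl/fl and Gpr124 dEC/dEC pericytes.

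Interferons are signalling proteins that cells release on sensing foreign or misplaced nucleic acid. Their receptors act through JAK kinases and STAT proteins, and the resulting transcription factor complexes bind interferon-stimulated response elements, short repeats of GAAA, in the promoters of many genes. Among these are sensors, antiviral membrane proteins and the machinery that presents peptides on MHC class I. Many of the genes also have a basal level without added interferon.

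Promoters of the genes, 250 bases before to 50 after a RefSeq start site on GRCm38.p6, were searched on both strands for GAAANNGAAA, the core of the response element, and for the shorter GAANNGAAA. The collection of promoters used here held 7 of the 9 genes, and Ifi204 and Ifi27 were not in it, so they were not searched. At any start site, the longer motif lay in 5 of the 7 (Ifi203, Ifitm2, Ifitm3, Bst2 and B2m) and in 3.99% of all 27025 genes (3.44% of all 32851 promoters). The shorter motif lay in the other 2 (H2-D1 and H2-K1) and in 8.68% of all genes (7.52% of all promoters). A match describes these letters and is not shown to be a bound site. The windows below are shown as a description, and a relation between the motif and the genotype ratios was not tested. They read 5′ to 3′ on the strand of the gene, with the matched motif in capitals (for H2-D1 and H2-K1 the motif lies on the opposite strand, so the capitals are its reverse complement).
Ifi203, 35 bases before the second of 2 start sites, chr1:173942508-173942537, - strand: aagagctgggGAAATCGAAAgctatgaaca
Ifitm2, 46 bases before the start, chr7:140955988-140956017, - strand: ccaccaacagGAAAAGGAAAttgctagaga
Bst2, 130 bases before the start, chr8:71537583-71537612, - strand: ggcattccagGAAAATGAAActgaaaggct
Bst2, 124 bases before the start and overlapping the match above, chr8:71537577-71537606, - strand: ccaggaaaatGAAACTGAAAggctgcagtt
B2m, 139 bases before the start, chr2:122147538-122147567, + strand: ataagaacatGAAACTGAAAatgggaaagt
H2-D1, 150 bases before the start, chr17:35262934-35262962, + strand: atctcctcagTTTCACTTCtgcacctaac
H2-K1, 90 bases before the first of 2 start sites, chr17:34000419-34000447, - strand: atctccacagTTTCACTTCtgcacctaac
The Ifi203 window lies between its 2 start sites, inside the longer transcript. In Ifitm3, 2 matches lay 2 and 19 bases past the start, in the transcribed part.

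Ifi203 (ENSMUSG00000039997; chr1:173920407-173942672 on GRCm38, - strand) belongs to the IFI200 family of nuclear DNA-binding proteins, whose genes lie in a cluster on chromosome 1. The 9 Gpr124 fl/fl pericytes held 2 UMIs of it and the 12 Gpr124 dEC/dEC pericytes 30, that is 0.623 and 6.20 UMIs per 10000. With cells ordered by rising total UMIs, the Gpr124 dEC/dEC pericytes had 2, 2, 0, 0, 1, 0, 1, 2, 3, 7, 10 and 2 UMIs. The 6 Gpr124 fl/fl pericytes of the CD31-gate plate had 0 each, and the 3 of the PDGFRB-gate plate had 1, 0 and 1. The log2 ratio of Gpr124 dEC/dEC over Gpr124 fl/fl was 3.32 (1.34 to 6.43), or 9.96-fold. Of 1915 genes with at least 10 UMIs in pericytes, 5, Ifi203 included, had a ratio this high or higher.

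By cell, 9 of 12 Gpr124 dEC/dEC pericytes (75%) and 2 of 9 Gpr124 fl/fl pericytes (22.2%) had an Ifi203 UMI. With every cell thinned to 1000 UMIs, the shares were 41.9% and 4.92%. Median totals were 3752.5 and 3582 UMIs. The cells of the 2 genotypes overlapped, since 3 Gpr124 dEC/dEC pericytes also had 0 UMIs. A pair of Gpr124 dEC/dEC cells held 17 of the 30 UMIs. Wells below 1000 UMIs gave 0.546 (Gpr124 fl/fl) and 1.03 (Gpr124 dEC/dEC) UMIs per 10000. In the PDGFRB-gate plates alone, the second of which mixes both gates, the levels were 1.42 and 6.20 UMIs per 10000 (log2 ratio 2.13).

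**Figure D1:**
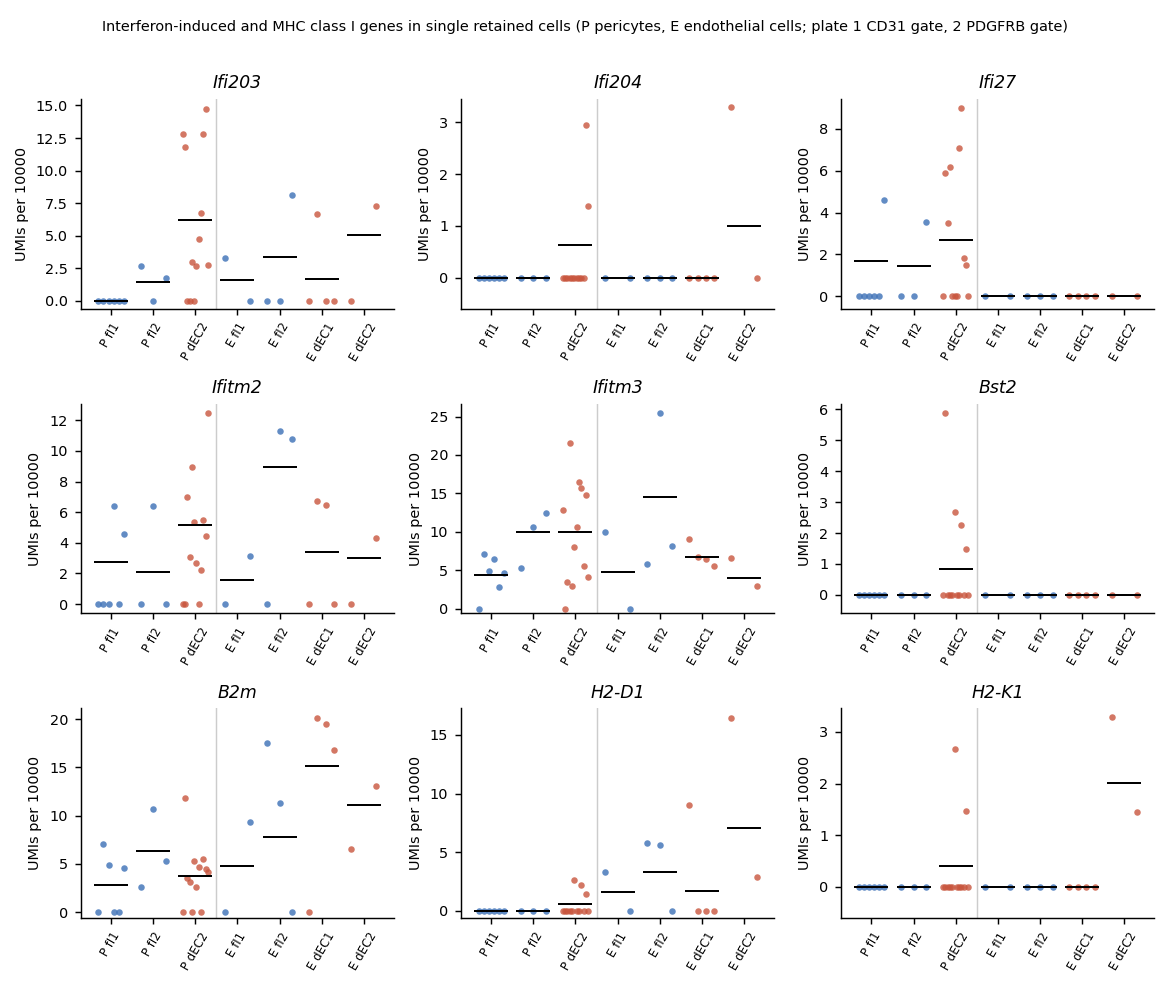
UMIs per 10000 of each of the 9 genes in single cells (points) and pooled (black bars) in the 7 combinations of class, genotype and plate; P is pericytes, E endothelial cells, 1 the CD31-gate plate, 2 the PDGFRB-gate plate, blue Gpr124 fl/fl and red Gpr124 dEC/dEC. The pooled Ifi203 level in pericytes is 0 and 1.42 in the Gpr124 fl/fl plates and 6.20 in the Gpr124 dEC/dEC plate, and that of B2m is 2.78, 6.39 and 3.72.

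Gpr124 fl/fl wells just outside the limits also held Ifi203, and the genotype ratio was smaller with them included. The nearest well over 8000 scaled UMIs was a Gpr124 fl/fl well with 10 Pdgfrb UMIs and 6 Ifi203 UMIs, and the nearest pericyte below the limit a Gpr124 dEC/dEC cell with 2. The nearest well below 1000 was a Gpr124 fl/fl well with 2 Pdgfrb UMIs and 1 Ifi203 UMI. The 3 Gpr124 fl/fl wells with UMIs of both markers had 3 Ifi203 UMIs each, 6.12 per 10000, close to the 6.20 of the Gpr124 dEC/dEC pericytes. These wells held 6, 9 and 4 Pdgfrb UMIs and 1 Cldn5 UMI each. Wells over 8000 UMIs with Pdgfrb had 2, 3 and 6 Ifi203 UMIs in Gpr124 fl/fl (3.96 per 10000) and 3, 2, 3, 8 and 5 in Gpr124 dEC/dEC (5.17 per 10000), a log2 ratio of 0.38 (-0.73 to 1.58). Over every Pdgfrb well with at least 1000 UMIs, 15 Gpr124 fl/fl and 17 Gpr124 dEC/dEC wells had 22 and 51 Ifi203 UMIs, 2.95 and 5.73 per 10000. The log2 ratio was then 0.96 (0.21 to 1.75), against 3.32 in the retained pericytes. In the left-out Pdgfrb wells alone it was 0.13 (-0.82 to 1.09).

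**Figure D2:**
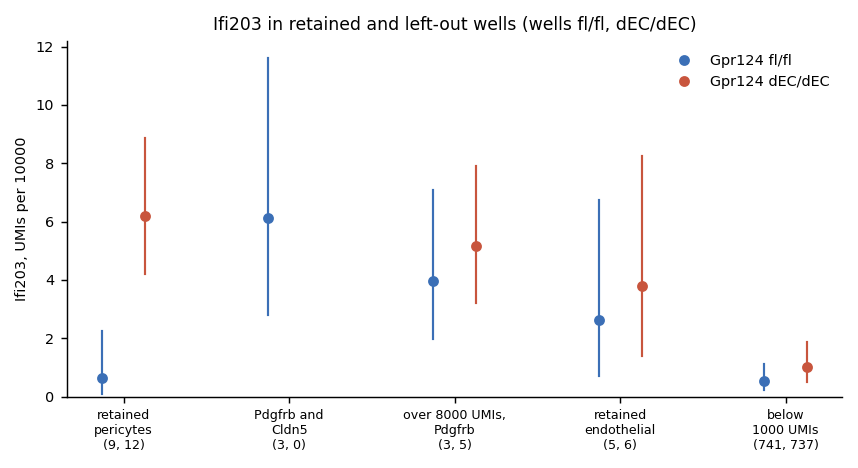
Pooled Ifi203 level (y axis, UMIs per 10000) in retained and left-out kinds of wells, with the number of Gpr124 fl/fl and Gpr124 dEC/dEC wells under each; points are pooled levels, bars 95% Poisson intervals, blue Gpr124 fl/fl and red Gpr124 dEC/dEC. The genotypes lie apart in the retained pericytes, at 0.623 and 6.20, while the Gpr124 fl/fl wells with both markers are at 6.12 and the intervals of the wells over 8000 UMIs overlap.

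Ifi204 (ENSMUSG00000073489; chr1:173747293-173766943), a second IFI200 gene, was not seen in Gpr124 fl/fl pericytes and had 3 UMIs in 2 Gpr124 dEC/dEC pericytes, no more than the floor, so no fold is given. Of the other IFI200 genes, Mndal was counted 9 and 11 times, at a log2 ratio of -0.30. The family together, Ifi203 and Ifi204 left out, had 9 and 15.

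Ifi27 (ENSMUSG00000064215; chr12:103434211-103440239), a small hydrophobic membrane protein, had 5 UMIs in 2 of 9 Gpr124 fl/fl pericytes and 13 in 7 of 12 Gpr124 dEC/dEC pericytes. The levels were 1.56 and 2.69 UMIs per 10000, with a log2 ratio of 0.79 (-0.79 to 2.63). The interval holds equal levels. With every Pdgfrb well of at least 1000 UMIs, Ifi27 had 10 and 22 UMIs (log2 ratio 0.88, -0.26 to 2.12).

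Ifitm2 and Ifitm3 encode membrane proteins that hinder the fusion of enveloped viruses with endosomes. Ifitm3 (ENSMUSG00000025492; chr7:141009586-141010770) had most UMIs of the 9 genes in pericytes (UMIs count molecules and were not scaled by length). The Gpr124 fl/fl pericytes had 0, 1, 1, 2, 1, 2, 5, 7 and 3 UMIs in the order of their totals, and the Gpr124 dEC/dEC pericytes 2, 0, 1, 7, 1, 3, 4, 7, 7, 3, 10 and 3. The counts of the genotypes overlapped throughout, at 6.85 and 9.93 UMIs per 10000 (log2 ratio 0.53, -0.22 to 1.33). In the PDGFRB-gate plates alone the level was 9.93 in both genotypes, and with only the CD31-gate plate of Gpr124 fl/fl the log2 ratio was 1.16, past 2-fold. Over every Pdgfrb well with at least 1000 UMIs, Ifitm3 had 57 and 98 UMIs (log2 ratio 0.53, 0.04 to 1.02). That interval, for counting error only, lies just above equal levels.

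Ifitm2 (ENSMUSG00000060591; chr7:140954837-140955987) had 8 UMIs in 3 of 9 Gpr124 fl/fl pericytes and 25 in 9 of 12 Gpr124 dEC/dEC pericytes, at 2.49 and 5.17 UMIs per 10000. Its log2 ratio was 1.05 (-0.14 to 2.41), just past 2-fold with an interval that holds equal levels. It was under 2-fold without the Gpr124 fl/fl PDGFRB-gate plate (0.90), without the upper UMI limit (0.80), over every Pdgfrb well with at least 1000 UMIs (0.75), without the cell with most Ifitm2 UMIs (0.64) and with the class taken from the gate (0.38). Its counts are uncertain, since 49.7% of the 60-base words in the last 600 bases of its transcripts, next to the poly(A) tail, also occur in other genes, mostly in the gene models Gm45717, Gm11951 and Gm8865. For Ifitm3, H2-D1 and H2-K1 these shares were 6.28%, 3.18% and 3.88%, and for the other 5 genes 0%. Ifitm1, another gene of the family, had 15 and 36 UMIs, at a log2 ratio of 0.67 (-0.23 to 1.65).

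Bst2 (ENSMUSG00000046718; chr8:71534255-71537456), tetherin, which holds budding virus particles at the cell surface, had 0 UMIs in the 9 Gpr124 fl/fl pericytes and 1 UMI in each of 4 Gpr124 dEC/dEC pericytes. No fold is given at this depth. Over every Pdgfrb well with at least 1000 UMIs it had 1 and 9 UMIs (log2 ratio 2.92, 0.06 to 8.37). Of the 9, 4 were in 1 left-out well of the Gpr124 dEC/dEC CD31-gate plate, and the interval leaves out the spread between wells.

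B2m (ENSMUSG00000060802; chr2:122147686-122153083) encodes the light chain of MHC class I. It had 14 UMIs in 6 of 9 Gpr124 fl/fl pericytes and 18 in 9 of 12 Gpr124 dEC/dEC pericytes, at 4.36 and 3.72 UMIs per 10000. The log2 ratio was -0.23 (-1.32 to 0.89), and its direction turned with the plate left out, at 0.42 without the Gpr124 fl/fl PDGFRB-gate plate and -0.78 without the Gpr124 fl/fl CD31-gate plate. The heavy chain genes were near 0: H2-D1 (ENSMUSG00000073411; chr17:35262730-35267499) had 0 and 3 UMIs, the 3 in 3 Gpr124 dEC/dEC cells, and H2-K1 (ENSMUSG00000061232; chr17:33996017-34000347) had 0 and 2. A count of 0 in Gpr124 fl/fl pericytes allows up to 1.15 UMIs per 10000.

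The 5 genes with at least 10 UMIs in pericytes were Ifi203, Ifi27, Ifitm2, Ifitm3 and B2m. Ifi203 and Ifitm2 were at least 2-fold higher in Gpr124 dEC/dEC, and none was at least 2-fold higher in Gpr124 fl/fl. Of all genes tested this way, 12.6% (242 of 1915) were at least 2-fold higher in Gpr124 dEC/dEC and 13.1% (251) in Gpr124 fl/fl. The Ifi203 count follows from how the genes were chosen. Without it, the remaining 4 of the 5 genes had a median log2 ratio of 0.66, beside -0.0056 over all genes, and 1 of the 4, Ifitm2, was past 2-fold, a call that is lost under the 5 alternatives given for it above. Taken over every Pdgfrb well with at least 1000 UMIs, the log2 ratios lay closer together. They were 0.96 for Ifi203, 0.88 for Ifi27, 0.75 for Ifitm2, 0.53 for Ifitm3 and 0.17 for B2m. Cells with and without an Ifi203 UMI had similar sums of the other 8 genes. In Gpr124 dEC/dEC pericytes these summed to 23.4 UMIs per 10000 in the 9 cells with Ifi203 and 26.4 in the 3 without, and in Gpr124 fl/fl pericytes to 16.0 in 2 cells and 15.0 in 7.

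**Figure D3:**
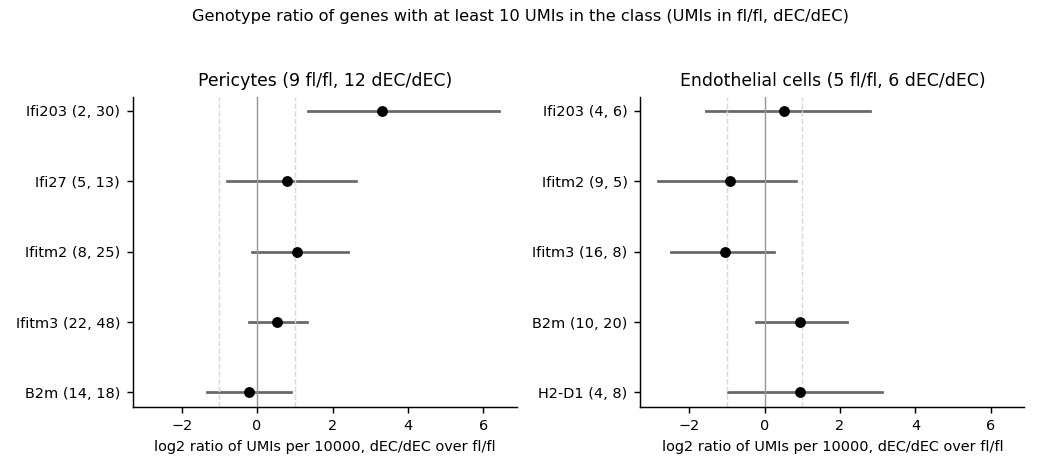
Log2 ratio of pooled UMIs, Gpr124 dEC/dEC over Gpr124 fl/fl, in pericytes and in endothelial cells, for genes with at least 10 UMIs in the class; points are ratios, bars 95% counting intervals, dashed lines a ratio of 2 in either direction, and numbers beside each gene its UMIs in both genotypes. In pericytes only the Ifi203 interval, from 1.34 to 6.43, lies above 0 among the 5 genes drawn. Ifi203 was selected on this ratio, so its place in the figure is a description.

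Over the 21 pericytes, log2(UMIs per 10000 + 1) of Ifi203 was most like that of 1110004F10Rik (Pearson r 0.72), Eno1 (0.71), Ftl1 (0.69), Mpc1 (0.66) and Smarca4 (0.65), among 1940 genes with a UMI in at least 7 pericytes. The points share the depth of their wells, and 3 of these 5 genes had 7 to 10 UMIs in all, so the values are a description. For Ifi27, Ifitm3, B2m and Ifitm2, r was 0.28, 0.12, 0.012 and -0.064.

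The wider set of other interferon-induced genes, 68 in the files, of which 39 had a UMI in pericytes, was also higher in Gpr124 dEC/dEC pericytes, beyond counting error. It summed to 51 and 138 UMIs (15.9 and 28.5 per 10000, Gpr124 fl/fl first), a log2 ratio of 0.85 (0.37 to 1.34), and 28 of the 39 (71.8%) were higher per 10000 in Gpr124 dEC/dEC, beside 51.2% of the 9617 genes with a UMI in pericytes. None of the 6 with at least 10 UMIs was past 2-fold. Per cell, the set ran from 4.85 to 25.6 with a median of 10.6 UMIs per 10000 in Gpr124 fl/fl, and from 5.50 to 57.6 with a median of 22.3 in Gpr124 dEC/dEC, so the ranges overlapped. Isg15, a ubiquitin-like protein that is a standard marker of an interferon response, had 9 UMIs in 2 of 12 Gpr124 dEC/dEC pericytes and 0 in 9 Gpr124 fl/fl pericytes. Without the cell with most UMIs of the set, the log2 ratio was 0.58 (0.083 to 1.1), and without the 2 cells with Isg15 0.36 (-0.18 to 0.91). Isg15 belongs to the set and the pericytes with it were all Gpr124 dEC/dEC, so leaving them out lowers the ratio by construction. One of the 2 is the pericyte with most Ifi203 UMIs (10 of its 6774), which also held 2 UMIs of Ifi204 and 1 each of Bst2, H2-D1 and H2-K1.

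**Figure D4:**
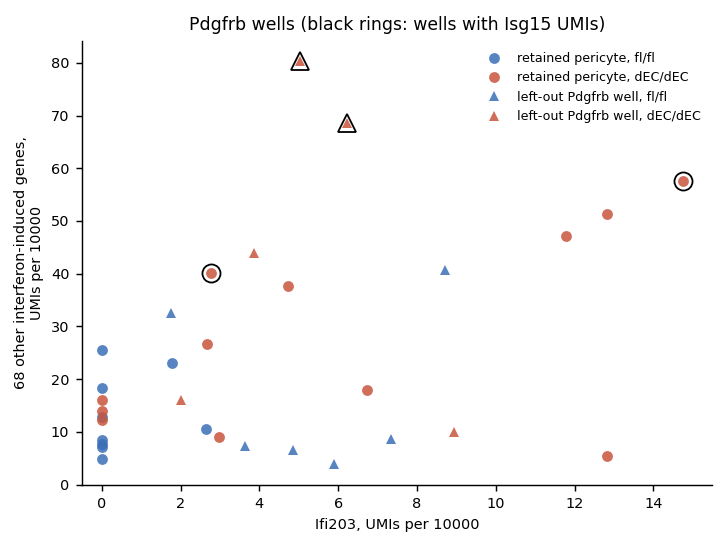
Summed level of the 68 other interferon-induced genes (y axis) against Ifi203 (x axis), both in UMIs per 10000, with 1 symbol per Pdgfrb well of at least 1000 UMIs; circles are retained pericytes, triangles Pdgfrb wells left out, blue Gpr124 fl/fl, red Gpr124 dEC/dEC, and black rings mark wells with Isg15 UMIs. In the retained pericytes the highest Gpr124 dEC/dEC cell is at 57.6 and the highest Gpr124 fl/fl cell at 25.6 on the y axis, and all 4 ringed wells are Gpr124 dEC/dEC.

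In the 6 Gpr124 fl/fl and 5 Gpr124 dEC/dEC left-out Pdgfrb wells the set had 70 and 162 UMIs (16.5 and 39.9 per 10000), and without the 2 Gpr124 dEC/dEC wells with Isg15 70 and 59 UMIs, a log2 ratio of 0.43 (-0.10 to 0.95). Over every Pdgfrb well with at least 1000 UMIs it was 1.06 (0.75 to 1.37), and 0.38 (0.013 to 0.75) without the wells with Isg15. Among the same wells, Isg15 was seen in 4 of 17 Gpr124 dEC/dEC wells (23.5%, 6.81 to 49.9) and 0 of 15 Gpr124 fl/fl wells (up to 21.8%). These intervals overlap. In these wells Ifit1, which binds foreign RNA, had 15 UMIs in Gpr124 dEC/dEC and 0 in Gpr124 fl/fl. Of the 15, 7 were in 1 well of the CD31-gate plate, which also held 7 UMIs of Isg15 and 4 of Bst2. None of the 18 interferon ligand genes had a UMI in either class. Nucleic acid sensors had 3 and 10 UMIs in pericytes. Receptors and signalling genes had 45 and 82 UMIs in pericytes (log2 ratio 0.28), with Jak1 at 6 and 20 (1.15, -0.22 to 2.75). Antigen processing genes had 31 and 61 (0.39, -0.26 to 1.06), of which Canx, a chaperone of MHC folding, had 4 and 20 (1.73, 0.15 to 3.74) Calr, another, 11 and 17 (0.037), and Pdia3, an oxidoreductase of peptide loading, 7 and 5 (-1.08, -3.07 to 0.80). In endothelial cells Canx was the other way, at 9 and 3 (-1.65, -4.17 to 0.35). The other MHC class I genes were lower in Gpr124 dEC/dEC pericytes, just beyond counting error, with 13 and 7 (-1.48, -3.05 to -0.05). Of these, Fcgrt, an Fc receptor of MHC class I fold, was at 9 and 4.

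Macrophages, which express many of these genes, were checked with 19 marker genes. These had 0 UMIs in Gpr124 fl/fl pericytes and 21 in Gpr124 dEC/dEC pericytes, 16 of them in 1 cell that had 0 Ifi203 UMIs. The 7 Gpr124 dEC/dEC pericytes with no macrophage UMI had 21 Ifi203 UMIs (8.13 per 10000), and the 5 with one had 9 (4.0). T and NK cell, lens and astrocyte markers were at 0 in both genotypes of pericytes. Whether RNA from macrophages contributes to Ifi203 or to the other genes was not tested.

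In endothelial cells, the cells to which the Cre is directed, 2 of 5 Gpr124 fl/fl cells held 4 Ifi203 UMIs and 2 of 6 Gpr124 dEC/dEC cells held 6, at 2.63 and 3.78 UMIs per 10000, a log2 ratio of 0.52 (-1.55 to 2.79). Of the 6 Gpr124 dEC/dEC UMIs, 5 were in 1 cell. B2m had 10 and 20 UMIs (6.59 and 12.6 per 10000; log2 ratio 0.94, -0.23 to 2.20) and H2-D1 had 4 and 8 (0.94, -0.96 to 3.12). Ifitm3 went the other way, with 16 and 8 UMIs (10.5 and 5.04 per 10000; -1.06, -2.50 to 0.25), and Ifitm2 had 9 and 5 (-0.91, -2.84 to 0.82). All 5 intervals hold equal levels. By plate, B2m was 4.82 and 7.81 UMIs per 10000 in Gpr124 fl/fl and 15.2 and 11.1 in Gpr124 dEC/dEC (CD31-gate, then PDGFRB-gate plate). Each plate held 2 to 4 of these cells. The intervals overlapped, at 0.994 to 14.1 and 3.14 to 16.1 in Gpr124 fl/fl and 6.95 to 28.8 and 5.52 to 19.8 in Gpr124 dEC/dEC. Ifitm3 was 4.82 and 14.5 against 6.75 and 4.02. Ifi27 and Bst2 had 0 UMIs in both genotypes, Ifi204 0 and 1, and H2-K1 0 and 2. Of the 5 genes with at least 10 UMIs, none was at least 2-fold higher in Gpr124 dEC/dEC, beside 17.8% (96 of 538) of all genes, and 1, Ifitm3, in Gpr124 fl/fl, beside 12.6% (68). That Ifitm3 call is lost without the Gpr124 fl/fl PDGFRB-gate plate, where its log2 ratio is 0.065. Receptors and signalling genes were higher in Gpr124 dEC/dEC endothelial cells beyond counting error, with 7 and 36 UMIs (2.30, 1.11 to 3.71), of which Jak1 had 1 and 9 (3.11, 0.26 to 8.56), the 9 in 2 cells with 6 in 1 of them. The other interferon-induced genes had 36 and 55 UMIs in endothelial cells (23.7 and 34.7 per 10000, Gpr124 fl/fl first). Their log2 ratio was 0.55 (-0.084 to 1.196), in the same direction as in pericytes, but the interval holds equal levels. Both levels were above the 15.9 and 28.5 of pericytes. Erythroid genes had 233 UMIs in Gpr124 fl/fl endothelial cells and 3 in Gpr124 dEC/dEC, and their part in these ratios was not tested.

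The classes were compared over 7 sums of class and plate with edgeR's quasi-likelihood test and Benjamini-Hochberg adjustment. Plates were the replicates, and plates of 1 genotype share a suspension, so that p-values measure the spread between plates. After the filter on low counts, 148 genes were tested and none of the 9 was among them. Of the 148, 10.1% were higher in endothelial cells and 24.3% in pericytes, and 29.4% of the calls were toward endothelial cells (61.5% with library sizes alone). Without the filter, 10829 genes were tested, 0.462% higher in endothelial cells and 1.74% in pericytes, and the median log2 difference (endothelial minus pericyte) of all genes was -1.15. Among the 9 genes, 1, Ifi27, passed, with 0 UMIs in endothelial cells (up to 1.19 per 10000) and 18 in pericytes (2.24 per 10000, 1.33 to 3.54). Taken at the floor of 3 UMIs in endothelial cells, Ifi27 was 2.32-fold higher in pericytes. That fold depends on the chosen floor and leaves out counting error, so it is not a lower bound. The fitted log2 difference of -5.04 (SE 1.53, adjusted p = 0.0464) is no bound, since 1 class was at 0. This call is lost with library sizes alone (adjusted p = 0.267) and with the plate as a block (adjusted p = 0.516). H2-D1 had 12 UMIs in endothelial cells (3.86 per 10000, 2.0 to 6.75) and 3 in pericytes (0.373, 0.077 to 1.09), a log2 difference of 2.37 (SE 1.03, adjusted p = 0.327). B2m was at 9.66 (6.52 to 13.8) and 3.98 (2.72 to 5.61) UMIs per 10000, with a log2 difference of 0.41 (SE 0.58, adjusted p = 0.666). Ifi203 was at 3.22 (1.54 to 5.92) and 3.98 (2.72 to 5.61), with -0.88 (SE 0.69, adjusted p = 0.572), and Ifitm3 at 7.73 and 8.70, with -0.91 (SE 0.54, adjusted p = 0.549). With library sizes alone, where the median of all genes was -0.42, the differences of Ifi203 and Ifitm3 became -0.022 and -0.10, that of B2m 1.22 (adjusted p = 0.397) and that of H2-D1 3.17 (adjusted p = 0.0781). At this depth no difference between classes was shown for the other 8 genes.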

How the data were processed

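Single cells of vitreous bodies (4 plates, 1536 wells) were analysed. Per the labels and the methods, reads were mapped by the authors with STARsolo 2.7.11b (GRCm38), and the deposited values are estimated counts of UMIs for 32285 genes and 92 spike-ins, not scaled between wells. Of the values above 0, 5.48% were not whole, and values were rounded for sums, intervals and edgeR. Totals leave out spike-ins (47.5 to 73.1% of the UMIs of a plate) and were multiplied by 1 to 1.93 per plate, to match the highest plate median, before the limits of 1000 to 8000 UMIs. Mouse genes received 51972 to 174645 UMIs per plate. The mitochondrial share was taken over 13 genes. The number of pericytes retained in each genotype differs from the study's under the same stated filters, for a reason not found in the sources used here. With only 32 cells no doublet caller was run, and wells with both markers were left out. No line lacked a gene name.

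The 9 genes and all gene lists were chosen with earlier results of these data known. Named besides the 9 genes are genes of those lists with at least 10 UMIs or a genotype ratio of 2 or more, the main cell type markers and the 5 genes most like Ifi203. Isg15, Ifit1, the values of the 9 genes over all Pdgfrb wells and the wells left out were picked once their values had been seen. Genes with at least 10 UMIs in a class counted as past the fold at 2-fold, with 3 UMIs for a group at 0. Thinning to 1000 UMIs was averaged over 20 draws. Classes were compared with edgeR 4.0.16 (glmQLFit, glmQLFTest, TMM, filterByExpr, adjusted p threshold 0.05) on limma 3.58.1 and R 4.3.3, with DESeq2 1.42.0 as an alternative. The plan assumed whole counts. Replicate numbers mark the sort gate, not shared animals. Alternatives changed weighting, rounding, scaling, spike-ins, limits, class rule, single cells and plates. Other steps, tested on simulated data, used scipy 1.17.1, pandas 2.3.3, matplotlib 3.10.9 and numpy 2.4.6 under python 3.11.15.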

Additional observations from a re-analysis of the deposited data

Results flagged for a closer look

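All signals here were read in wells that the comparisons left out, where they stood above the same wells of Gpr124 fl/fl. For the 9 genes, only values higher in Gpr124 dEC/dEC with an interval without equal levels were flagged, so their direction follows from that rule. B2m, H2-D1 and H2-K1 were at 25.2, 8.21 and 8.80 UMIs per 10000 in the 2 Gpr124 dEC/dEC wells over 8000 UMIs without Pdgfrb. One of these, in the PDGFRB-gate plate, held 311 macrophage marker UMIs, with 36 B2m, 14 H2-D1 and 15 H2-K1 UMIs and 0 of Ifi203. The Gpr124 fl/fl side was 1 well of 9274 UMIs, with 1 UMI of B2m and 0 of H2-D1 and H2-K1. B2m was at 18.4 UMIs per 10000 in the 5 Gpr124 dEC/dEC wells with neither marker, in which macrophage markers had 75 UMIs (1 in Gpr124 fl/fl). The 2 Gpr124 fl/fl wells with neither marker held 3358 UMIs in all and 0 of B2m. In wells below 1000 UMIs, B2m was at 3.90 UMIs per 10000 in Gpr124 dEC/dEC (38 UMIs, against 24 in Gpr124 fl/fl, log2 ratio 1.06, 0.28 to 1.86). Macrophage markers were there at 14.9 UMIs per 10000 in Gpr124 dEC/dEC (145 UMIs) and 9.67 in Gpr124 fl/fl (124 UMIs). The other interferon-induced genes were at 39.9 UMIs per 10000 in the Gpr124 dEC/dEC Pdgfrb wells left out of the pericytes, against 16.5 in Gpr124 fl/fl. The part of macrophage RNA in these values was not tested.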

How the results depend on the processing

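The log2 ratio of Ifi203 in pericytes, 3.32, stayed above 0 in all 17 alternatives that gave a value, from 0.88 to 4.35. The genes were selected on this ratio, and most of these alternatives reuse the same cells, so its sign supports nothing. It was 0.88 with the class taken from the gate of the plate and 0.96 over every Pdgfrb well with at least 1000 UMIs. In the left-out Pdgfrb wells alone, which are not among these alternatives, it was 0.13 (-0.82 to 1.09). In the retained pericytes without the Gpr124 fl/fl CD31-gate plate it was 2.13. Without the Gpr124 dEC/dEC CD31-gate plate, which holds no pericyte, it could not change, and the other 2 plates left out gave no value. The count of the 9 genes at least 2-fold higher in Gpr124 dEC/dEC pericytes, 2 (Ifi203 and Ifitm2), was 1 with the gate as class (Ifi27, 1.87) and 1 over every Pdgfrb well (Bst2, 2.92). Without the Gpr124 fl/fl PDGFRB-gate plate Ifitm2 fell to 0.90 and Ifitm3 reached 1.16. In endothelial cells, the 1 gene past 2-fold higher in Gpr124 fl/fl became 0 with cells weighted equally, thinned cells, the formula of Seurat 5, spike-ins in totals, a lower limit of 500 UMIs, a mitochondrial share under 5% or without limit, the gate as class, CD31-gate plates only and genes with at least 30 UMIs, and 2 with PDGFRB-gate plates only. Genes past 2-fold higher in Gpr124 dEC/dEC went from 0 to 1 with a mitochondrial share under 5% or without limit, the gate as class, and plates of either gate alone. Without 1 plate each, these counts ran from 0 to 2 and from 0 to 1. The log2 ratio of Ifitm3 in endothelial cells reversed to 0.49 with CD31-gate plates only, and ran from -1.52 to 0.065 without 1 plate each. The sum of the other interferon-induced genes in pericytes fell from 0.85 to 0.36 without the pericytes with Isg15, and to 0.58 without its top cell. Isg15 is a gene of this sum, and among pericytes it was seen in Gpr124 dEC/dEC only. Over all genes, those past 2-fold in pericytes, 242 higher in Gpr124 dEC/dEC and 251 in Gpr124 fl/fl, became 533 and 448 without the upper limit, 479 and 445 over every Pdgfrb well, and 20 and 12 with at least 30 UMIs, and the first 393 without scaling between plates and 427 with the gate as class, the second 159 with a mitochondrial share under 5%. In endothelial cells, 96 and 68 became 43 and 44 with PDGFRB-gate plates, 33 and 27 with CD31-gate plates and 6 and 12 with at least 30 UMIs, the second 185 with the gate as class, and the first 53 to 63 without 1 of 3 plates. The number of genes tested changed in each of these alternatives, so these counts over all genes are not shares and cannot be compared as such. The counts of the 9 genes under alternatives have no share over all genes beside them and are a description. In the class comparison, edgeR called 51 genes, 46 with the replicate block (plate as a block), 238 without the filter (1 of the 9 genes), 168 without filter and with library sizes alone, 81 without filter and with the replicate block, 160 without filter in DESeq2, and 32 to 54 without 1 plate each, with 32 without the Gpr124 dEC/dEC PDGFRB-gate plate. With the gate as class it called 0 of 569, 7 of them at an unadjusted p under 0.05. Where not stated, the cause of a change was not tested. Depth, 15184 to 48351 UMIs per class and genotype, limits every gene at or under 3 UMIs.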
